A study of Mus musculus with 4 samples.

Results

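Smooth muscle and pericyte genes were examined in RNA sequencing of whole mouse heart. The set holds 9 genes expressed in mural cells, the cells that wrap blood vessels, and was listed by gene symbol, with earlier results of these data known: Myh11, Tagln, Cnn1, Mylk, Smtn, Myl9, Rgs5, Notch3 and Cspg4. All 9 were found among the 12408 genes listed, with reads in each of the 4 libraries. Each library came from 1 mouse of the C57BL/6 strain, labelled as 3 months old. Mice labelled CT carried WW45 flox/flox, a floxed allele of the Hippo scaffold gene listed as Sav1. Mice labelled cKO carried WW45 flox/flox-alpha-MHC-CRE, in which the alpha-myosin heavy chain promoter drives Cre recombinase. That promoter is active in cardiomyocytes, so the design does not aim the deletion at mural cells. For each genotype 1 mouse was at baseline and the other had 4 weeks of transverse aortic constriction (TAC), which narrows the aorta and loads the left ventricle. All 4 mice carried the floxed gene, only cKO mice carried Cre, and no library used here is labelled as sham-operated or as Cre alone. Effects of Cre and of the deletion, and of surgery and of load, therefore cannot be told apart.

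Vascular smooth muscle cells surround arteries and set their tone, while pericytes sit on capillaries. Contraction of smooth muscle starts when calcium and calmodulin activate myosin light chain kinase, which phosphorylates the regulatory light chain of smooth muscle myosin. Transcription of many contractile genes depends on serum response factor (SRF) and its cofactor myocardin. Mural cells are recruited to vessels by platelet-derived growth factor B (PDGF-B) from endothelium and are kept in their state by Notch signals received through NOTCH3.

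The libraries held 1587840 to 2796547 recovered reads, and 1 read was worth 0.371 to 0.612 CPM (reads scaled to a common library size). With 1 mouse per group, each pair of libraries has no replicate check. Intervals are 95% counting intervals, which cover counting error only: they leave out variation between mice, and PCR copies of one molecule are counted as if separate. A gene was counted as apart in a pair when its deposited log2 values differed by at least 1 (2-fold) and the interval of its read ratio excluded 1. Sav1 stood at 49.3 CPM (41.3 to 58.4) in CT and 39.8 (30.7 to 50.7) in cKO at baseline. With TAC it stood at 35.4 (27.7 to 44.7) in CT and 46.2 (36.9 to 57.2) in cKO. Its value was thus higher in the library labelled cKO TAC than in CT TAC, against that label. The intervals of the genotypes overlapped in both states, and gene-level values cannot show the loss of floxed exons in cardiomyocytes. Directions between genotypes are those of the libraries as labelled. In whole heart, fewer mural cells and less RNA per mural cell cannot be told apart. The 9 genes summed to 613.6 CPM in CT baseline and 519.9 in cKO baseline, and to 479.6 in CT TAC and 479.9 in cKO TAC. Summed CPM of 12 cardiomyocyte markers was 167784 in CT and 143057 in cKO at baseline, and 158193 in CT and 124081 in cKO with TAC. Myh6 weighed most, at 57903 in CT and 41570 in cKO at baseline, and 51827 and 33239 with TAC. The median log2 ratio of cKO to CT over the 12 was -0.09 at baseline and -0.13 under TAC. Tnnt2 was higher in cKO (0.44 and 0.49), so the sums do not describe each marker.

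Promoter windows are shown for the 3 genes whose windows held a match to one of the motifs searched. The motifs were the CArG box bound by SRF, CATTCC bound by the Hippo-regulated TEAD factors, and TGGGAA bound by the Notch effector RBPJ, each on both strands. RefSeq windows (GRCm38.p6, the mm10 assembly) covered 7 of the 9 genes. Each spans 250 bases before the start and 50 after it. The stretches shown are the longest before that start that no annotated exon of the gene covers. Capitals mark the motif matches, and sequences run 5′ to 3′ on the gene's strand.
Myl9, plus strand, chr2:156775214-156775419: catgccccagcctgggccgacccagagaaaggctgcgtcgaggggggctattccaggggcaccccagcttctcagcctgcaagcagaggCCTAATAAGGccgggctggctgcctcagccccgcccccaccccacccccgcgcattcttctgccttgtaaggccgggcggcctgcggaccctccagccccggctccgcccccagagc
Mylk, plus strand, chr16:34784700-34784920: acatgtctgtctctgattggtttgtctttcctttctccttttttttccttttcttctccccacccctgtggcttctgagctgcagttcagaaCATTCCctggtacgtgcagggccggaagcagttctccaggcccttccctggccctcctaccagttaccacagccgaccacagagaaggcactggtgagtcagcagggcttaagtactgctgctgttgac
Smtn, minus strand, chr11:3539324-3539542: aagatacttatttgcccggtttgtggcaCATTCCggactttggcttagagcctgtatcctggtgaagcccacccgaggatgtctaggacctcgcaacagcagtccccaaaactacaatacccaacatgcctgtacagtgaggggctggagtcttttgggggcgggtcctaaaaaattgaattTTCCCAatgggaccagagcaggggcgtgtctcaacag

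Myl9 held the CArG box, as did 1.63% of all 32851 promoter windows. The CATTCC match in Mylk and Smtn is shared with 14.7% of windows, and TGGGAA, present in Smtn on the opposite strand, with 25.6%. The Mylk window lies inside the annotated Mylk gene, which runs from 34745210 to 35002420 on chromosome 16, and belongs to an internal start. So does the Smtn window, which lies inside the annotated Smtn gene (3517523 to 3540612 on chromosome 11). Windows of Cnn1, Rgs5, Notch3 and Cspg4 held none of these letters. A match describes letters and is not evidence of binding.

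Levels between genes were compared per kilobase of exon (GENCODE M21 exon union). In CT baseline the order ran from Rgs5 at 44.6 CPM per kb (40.9 to 48.5) through Smtn at 28.9 (26.0 to 32.2) and Myl9 at 24.9 (19.7 to 31.1). Tagln at 11.4 (8.70 to 14.6), Notch3 at 9.39 (8.15 to 10.8), Mylk at 6.81 (5.92 to 7.81) and Myh11 at 6.12 (5.12 to 7.32) followed. Cspg4 at 2.52 (2.0 to 3.13) and Cnn1 at 1.22 (0.558 to 2.31) stood lowest. Neighbours with overlapping intervals were Smtn and Myl9, Tagln and Notch3, Mylk and Myh11, and Cspg4 and Cnn1. The ends of the order were alike in all 4 libraries, with Rgs5 first and Cnn1 last, but neither place was resolved under TAC. The interval of Cnn1 overlapped that of the next gene up in both TAC libraries, as in CT baseline, and lay apart only in cKO baseline. In CT TAC the interval of Rgs5 (32.3 CPM per kb, 28.7 to 36.2) overlapped that of Smtn (28.8, 25.3 to 32.5), and in cKO TAC those of Rgs5, Myl9 and Smtn overlapped in turn (29.3, 26.7 and 24.7 CPM per kb).

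**Figure D1:**
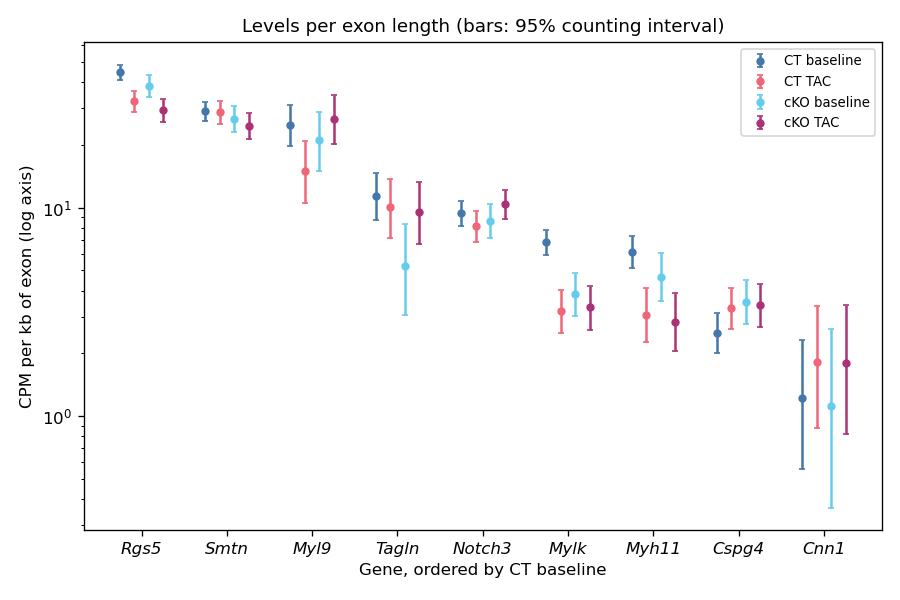
Level per kilobase of exon (CPM per kb, log axis) for the 9 genes in the 4 libraries, ordered by the CT baseline library; bars are 95% counting intervals. By value Rgs5 is the highest and Cnn1 the lowest of the 9 in each library, but their intervals overlap those of neighbours in some libraries.

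The contractile genes did not move as a block. Myh11 encodes smooth muscle myosin heavy chain and is the defining gene of mature smooth muscle (ENSMUSG00000018830.10; mm10 chromosome 16, 14194535 to 14291372, minus strand). It had 125.5 reads in CT baseline, or 46.5 CPM (38.9 to 55.6), and 57.5 reads in cKO baseline, or 35.2 CPM (26.9 to 45.9). Under TAC it had 46.5 reads in CT, or 23.2 CPM (17.2 to 31.2), and 39.5 in cKO, or 21.5 CPM (15.5 to 29.6). Both TAC libraries therefore lay under both baseline libraries, although the interval of cKO baseline overlapped those of both TAC libraries. Its recovered reads were not whole numbers, and the reason was not tested, so its values are uncertain.

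Mylk encodes myosin light chain kinase (chromosome 16, plus strand). It had 207 reads in CT baseline, or 76.7 CPM (66.6 to 87.9), against 72 in CT TAC, 71 at baseline in cKO and 69 with TAC in cKO. The last 3 correspond to 35.9 CPM (28.1 to 45.3), 43.4 (33.9 to 54.8) and 37.5 (29.2 to 47.5). CT baseline stood above the other 3 libraries with no overlap of intervals, and those 3 overlapped one another.

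Myl9 encodes the regulatory light chain that Mylk phosphorylates (chromosome 2, 156775420 to 156781658, plus strand). It had 78 reads in CT baseline, or 28.9 CPM (22.9 to 36.1), and 35 in CT TAC, or 17.5 CPM (12.2 to 24.3). The libraries labelled cKO held 40 reads at baseline, 24.5 CPM (17.5 to 33.3), and 57 under TAC, 31.0 CPM (23.5 to 40.2). CT TAC was the lowest and cKO TAC the highest of the 4, so the kinase and its substrate differed in their pattern: under TAC, Myl9 was higher in cKO than in CT while Mylk was at nearly the same level.

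Tagln encodes transgelin (SM22-alpha), an actin-binding protein abundant in smooth muscle (chromosome 9, 45929619 to 45936058, minus strand). At baseline it had 61 reads in CT, or 22.6 CPM (17.3 to 29.0), and 17 in cKO, or 10.4 CPM (6.06 to 16.6). With TAC it had 40 reads in CT, or 20.0 CPM (14.3 to 27.2), and 35 in cKO, or 19.0 CPM (13.3 to 26.5). Here cKO baseline was the lowest library, but its interval lay apart from that of CT baseline alone and overlapped both TAC libraries. In the annotation, 1241 bases of Tagln exon overlap an antisense gene and 108 overlap Pcsk7, a protein-coding gene on the opposite strand. Opposite-strand genes also overlap Mylk exons by 548 and 224 bases, Smtn exons by 714 and 39, and Notch3 exons by 488. No source read here says whether counting used strand, so reads of these genes and their opposite-strand partners cannot be told apart.

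Cnn1, which encodes calponin, an inhibitor of actomyosin ATPase (chromosome 9, 22099216 to 22109630), had 9, 10, 5 and 9 reads in CT baseline, CT TAC, cKO baseline and cKO TAC. Its levels of 3.34, 4.99, 3.06 and 4.89 CPM had wide intervals that overlapped in every pair, so no difference was detectable at this depth. Smtn encodes smoothelin, a cytoskeletal protein of contractile smooth muscle (chromosome 11, 3517523 to 3540612). At baseline it had 127 CPM (114 to 141) in CT and 117 (101 to 135) in cKO, and with TAC 126 (111 to 142) in CT and 108 (93.7 to 124) in cKO. Smtn had the narrowest range of the 9, 1.17-fold from the lowest to the highest library, and its intervals overlapped throughout. Its recovered reads were not whole in 3 libraries.

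Among the genes that mark pericytes, Rgs5 encodes a regulator of G protein signalling (chromosome 1, 169655501 to 169695813). At baseline it had 547 reads in CT, or 202.8 CPM (186 to 220.5), and 285 in cKO, or 174 CPM (155 to 196). With TAC it had 294 reads in CT, or 147 CPM (130.5 to 164.5), and 245 in cKO, or 133 CPM (117 to 151). As for Myh11, both TAC libraries lay under both baseline libraries, with overlap between CT TAC and cKO baseline.

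Notch3, the receptor through which mural cells receive Notch signals (chromosome 17, 32120820 to 32166852), had 76.0 CPM (65.9 to 87.1) in CT baseline and 65.9 (55.1 to 78.1) in CT TAC. In cKO it had 69.7 (57.5 to 83.8) at baseline and 83.8 (71.0 to 98.1) under TAC. All 4 intervals overlapped. Cspg4 encodes the NG2 proteoglycan of the pericyte surface (chromosome 9, 56865033 to 56899870). At baseline it had 30.0 CPM (23.8 to 37.3) in CT and 42.2 (32.8 to 53.4) in cKO, and with TAC 39.4 (31.2 to 49.1) in CT and 40.8 (32.1 to 51.1) in cKO. CT baseline was its lowest library, the reverse of Mylk, Rgs5 and Myh11, for which CT baseline was the highest.

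**Figure D2:**
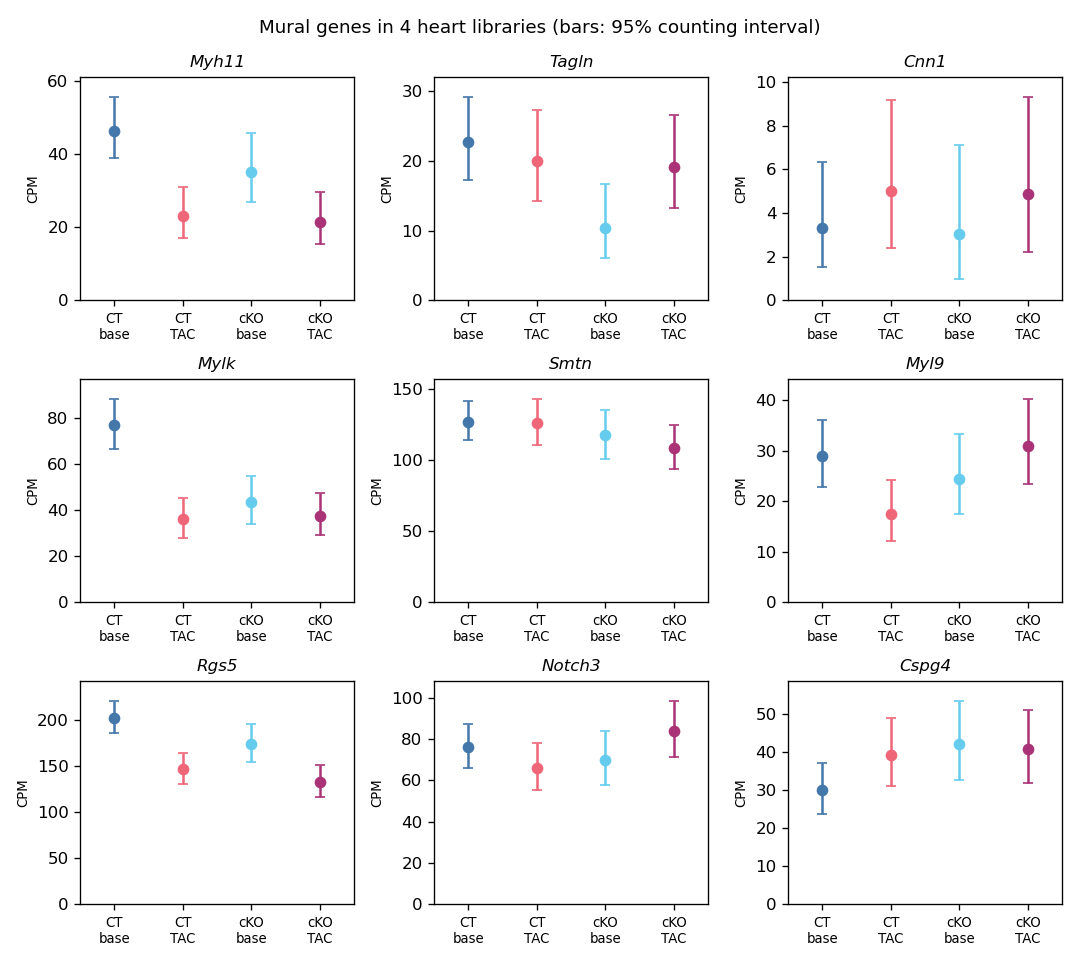
CPM of each of the 9 genes in the 4 libraries (1 mouse each), each panel with its own axis from 0; bars are 95% counting intervals. Myh11 and Rgs5 are lower in both TAC libraries, Mylk is high only in CT baseline (76.7 CPM), and Tagln is low in cKO baseline (10.4 CPM).

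The first comparison asked how TAC and baseline libraries differed in mice labelled CT. Mylk was lower under TAC by at least 2-fold, at 0.468 times its baseline level (interval 0.353 to 0.615; log2 ratio -1.08). Myh11 lay at the threshold, with a read ratio of 0.499 (0.351 to 0.707) and a deposited log2 ratio of -0.99, so it did not pass. Myl9 at -0.71 (ratio 0.604, 0.393 to 0.911) and Rgs5 at -0.47 (ratio 0.724, 0.626 to 0.836) also had intervals below 1. In all, 1 of 9 genes was at least 2-fold lower, where 4.68% of all 12408 genes were, and none was 2-fold higher, where 6.06% were. Without regard to fold, 4 of 9 had an interval below 1 against 15.3% of all genes, and 0 of 9 an interval above 1 against 16.4%. The median log2 ratio of the 9 was -0.20, and that of all genes 0.01.

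Notch3 (-0.20), Tagln (-0.18) and Smtn (-0.01, or 0.00 scaled to total counts) had intervals that included 1 in this pair, and so did Cspg4 (0.39) and Cnn1 (0.52), the 2 genes with ratios above 0. Most fibroblast markers moved the other way in the same libraries. Of 14 fibroblast markers 9 were at least 2-fold higher under TAC, and the sum of the 14 went from 4193 to 8570 CPM. Gsn weighed most in CT baseline, at 2446 CPM, and was lower in CT TAC, at 2095. The fibroblast sums given here and below therefore do not describe each marker. Endothelial markers summed to 2471 CPM at baseline and 2147 under TAC, with 0 of 12 passing, and the 11 macrophage markers to 448 and 661. No marker of these 3 lists was at 0 reads in any library. The part of these cell types in the mural ratios was not tested.

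In the libraries labelled cKO, no gene of the 9 was at least 2-fold apart between TAC and baseline (6.53% of all genes were, 3.69% higher and 2.84% lower). Myh11, at a log2 ratio of -0.70 (ratio 0.611, 0.399 to 0.933), and Rgs5, at -0.39 (ratio 0.764, 0.642 to 0.910), had intervals below 1, as did 10.9% of all genes. Tagln had the highest ratio at 0.84 (1.83-fold, 0.998 to 3.48), and its interval reached 1. Mylk was at -0.21, Smtn at -0.11, Cspg4 at -0.05, Notch3 at 0.26, Myl9 at 0.34 and Cnn1 at 0.60, each with an interval that included 1. The median of the 9 was -0.05, against -0.00 for all genes. Fibroblast markers summed to 5824 CPM in cKO baseline and 9890 in cKO TAC, with 9 of 14 at least 2-fold higher.

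**Figure D3:**
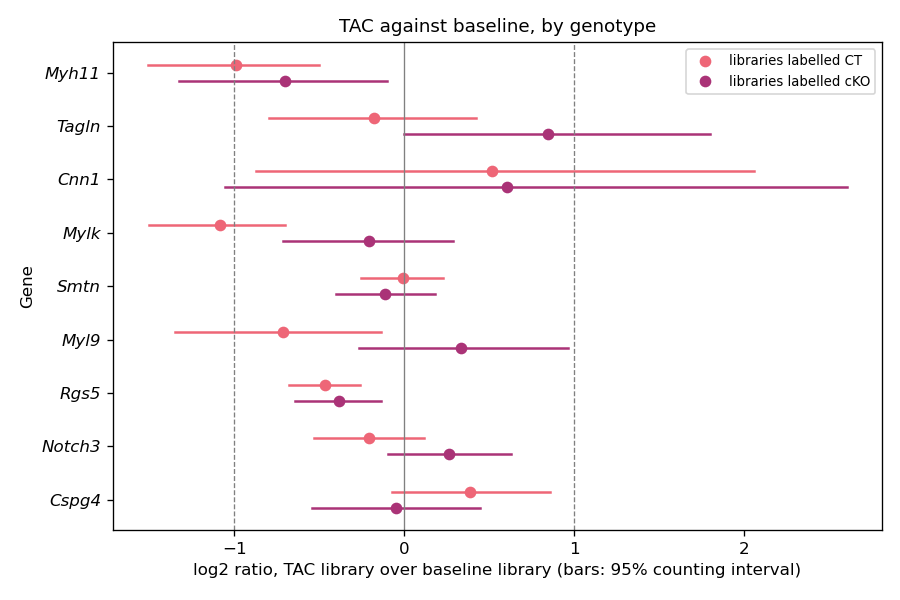
Log2 of TAC over baseline CPM for each gene, in libraries labelled CT and cKO; lines are 95% counting intervals and dashed lines mark 2-fold. Myh11 (-0.99 and -0.70) and Rgs5 (-0.47 and -0.39) lie below 0 in both genotypes, while Mylk, Myl9 and Tagln lie further to the right in cKO.

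The TAC ratio was then set against itself between genotypes. Myl9 had a log2 TAC ratio 1.05 higher in cKO than in CT (interval 0.24 to 1.86), Tagln 1.02 higher (0.02 to 2.02) and Mylk 0.88 higher (0.26 to 1.49). These 3 of 9 had counting intervals above 0, as did 9.03% of all genes, and none had one below 0 against 9.48%. For Rgs5 the difference was 0.08 (-0.24 to 0.40) and for Myh11 0.29 (-0.46 to 1.03), both with intervals that included 0. With 1 mouse per group this difference has no test between conditions.

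In limma's fit, where 2 mice stand on each side of the surgery term and genotype is the other term, none of the 9 genes was called for TAC at a Benjamini-Hochberg adjusted p under 0.05, against 1.82% of all genes (1.3% rose and 0.524% fell). At an unadjusted p under 0.05 there were 3 of 9, Myh11, Mylk and Rgs5, against 16.2% of all genes. Myh11 had the largest estimate of these, -0.84 on the log2 scale (limma, SE 0.26, adjusted p = 0.146), with a lower TAC level in both genotypes. Mylk was at -0.65 (limma, SE 0.26, adjusted p = 0.262) and Rgs5 at -0.43 (limma, SE 0.18, adjusted p = 0.281). Rgs5 was also lower in both. For Mylk the log2 ratio in cKO was -0.21, with a ratio interval that included 1 (0.611 to 1.22). The fit has 1 residual degree of freedom, so its p-values rest mainly on variance shared across genes.

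The next comparison set the genotypes against each other at baseline. It shares CT baseline with the TAC comparison in CT, so the 2 sets of ratios are not independent. Tagln was at least 2-fold lower in cKO (log2 ratio -1.09; ratio 0.460, 0.252 to 0.798), the only gene of the 9 to pass. Among all genes 5.05% passed, 1.79% lower and 3.26% higher. Scaled to total counts, Tagln was at -0.99 and did not pass. Mylk, at -0.81 (ratio 0.566, 0.426 to 0.745), and Rgs5, at -0.22 (ratio 0.860, 0.742 to 0.994), also had intervals below 1, giving 3 of 9 against 10.3% of all genes. Cspg4 had an interval above 1 (log2 ratio 0.48; 1.41-fold, 1.0 to 1.96), as did 9.22% of all genes.

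Myh11 (-0.40), Myl9 (-0.24), Notch3 (-0.12), Smtn (-0.11) and Cnn1 (-0.11) had ratios below 0 with intervals that included 1. The median of the 9 was -0.22, against 0.00 for all genes. Macrophage markers summed to 448 CPM in CT baseline and 1021 in cKO baseline, with 7 of 11 at least 2-fold higher. Fibroblast markers summed to 4193 and 5824, with 7 of 14 passing, and endothelial markers to 2471 and 2098, with none of 12 passing. Their part in the mural ratios was not tested.

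Under TAC the libraries labelled cKO and CT were closer in these genes. None of the 9 was at least 2-fold apart, where 2.93% of all genes were higher and 2.08% lower. Myl9 was 1.77-fold higher in the library labelled cKO TAC (1.14 to 2.79; log2 ratio 0.81) and Notch3 1.27-fold higher (1.0 to 1.62; log2 ratio 0.34), and these 2 of 9 had intervals above 1 against 9.49% of all genes. The other 7 had log2 ratios from -0.22 (Smtn) to 0.06 (Mylk), with intervals that included 1. The median of the 9 was -0.03, and that of all genes 0.01. In limma's fit with a surgery term, none of the 9 was called for genotype, where 0.0242% of all genes were. None of the 9 had an unadjusted p under 0.05, against 7.77% of all genes. Tagln had the estimate farthest from 0, -0.58 (limma, SE 0.34, adjusted p = 0.766).

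**Figure D4:**
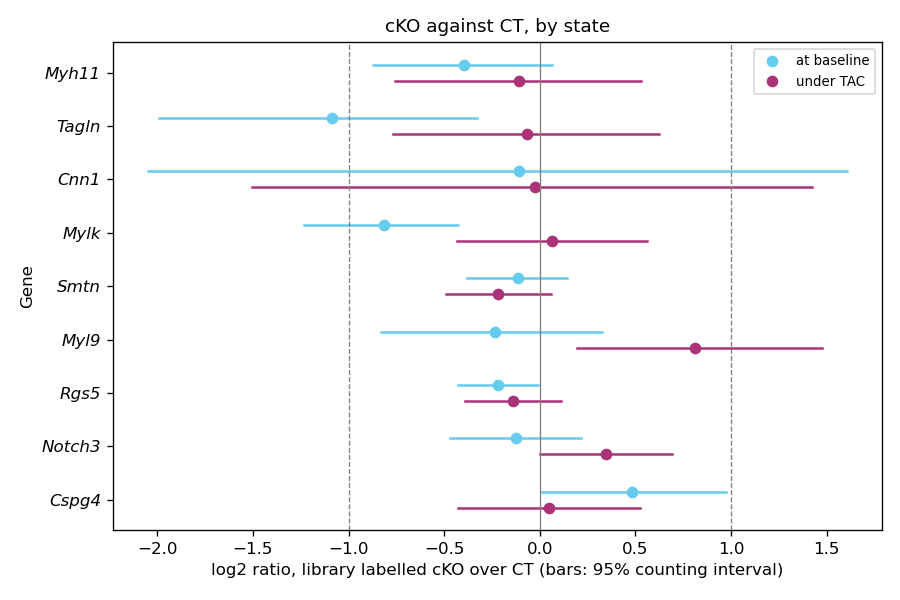
Log2 ratio of the library labelled cKO to the CT library for each gene, at baseline and under TAC; lines are 95% counting intervals and dashed lines mark 2-fold. At baseline 8 of 9 genes lie below 0, Tagln (-1.09) farthest, and under TAC Myl9 (0.81) lies farthest from 0.

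Other genes of the contractile apparatus were read from a list of 18 cytoskeletal genes. Counted over the 4 pairs, 5 passed in at least 1 pair and 13 in none, where 19.5% of all genes passed in at least 1 pair. Smooth muscle alpha-actin Acta2 was higher in the libraries labelled cKO, with 201.6 CPM in CT against 594 in cKO at baseline, and 161 in CT against 490.0 in cKO with TAC. It was 1.56 log2 units higher in cKO at baseline and 1.60 under TAC, and it rose with genotype by 1.58 (limma, SE 0.17, adjusted p = 0.00913, higher in cKO in both states). Without the variance trend, or without the surgery term, limma called no gene for genotype. Smooth muscle gamma-actin Actg2 had 86, 75, 10 and 3 reads in CT baseline, CT TAC, cKO baseline and cKO TAC. Between genotypes its log2 ratio, cKO over CT, stood at -2.29 without TAC and -4.16 with it (read ratio 0.00879 to 0.132).

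Leiomodin Lmod1, which nucleates actin filaments, had 15 reads in each baseline library and 4 in each TAC library. It passed as lower under TAC in cKO (-1.86) but not in CT (-1.28). Myl6, the essential light chain that partners Myl9, was higher in CT TAC than in CT baseline (1.87) and in cKO baseline than in CT baseline (1.91). Its recovered reads were not whole numbers, so these values are uncertain. The transgelin and calponin relatives Tagln2 and Cnn3, named after their values were seen, rose with TAC in limma's fit, by 0.92 (limma, SE 0.20, adjusted p = 0.0487) and 0.97 (limma, SE 0.20, adjusted p = 0.0411), each in both genotypes. The median log2 TAC ratio of the 18 was 0.20 in CT and 0.00 in cKO.

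Of 23 genes that set light chain phosphorylation and smooth muscle tone, 3 passed in some pair, against 19.5% of all genes. The myosin phosphatase subunits Ppp1r12b (-1.02) and Ppp1r12c (-1.05) were lower under TAC in CT, and Ppp1r12c was higher in cKO than in CT under TAC (1.01). Gucy1a3, a subunit of the nitric oxide receptor guanylate cyclase, was lower in cKO baseline than in CT baseline (-1.16) and higher under TAC than at baseline in cKO (1.05).

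Of 20 further pericyte genes, 3 were higher and 3 lower under TAC in CT, 1 was higher in cKO, and none passed between genotypes. Among all genes 6.06% were higher and 4.68% lower in CT, 3.69% were higher in cKO, and 5.05% and 5% passed between genotypes at baseline and under TAC. Their median log2 TAC ratio was 0.27 in CT and 0.39 in cKO. Higher in CT TAC were endosialin Cd248 (1.84), the lectin Colec11 (1.60) and aminopeptidase N, Anpep (1.19). Cd248 was also higher in cKO TAC (1.90) and rose in limma's fit by 1.87 (limma, SE 0.26, adjusted p = 0.00562, both genotypes). Lower in CT TAC were the endothelin receptor Ednra (-1.21), the metalloreductase gene Steap4 (-1.13, named after its value was seen) and the potassium channel subunit Abcc9 (-1.03). Abcc9 fell in limma's fit by 0.91 (limma, SE 0.17, adjusted p = 0.0298, both genotypes), on recovered reads that were not all whole. Which cells of the whole heart the reads of Abcc9, Cd248, Colec11, Anpep and the other genes of this list came from was not tested. Kcnj8, the pore that Abcc9 joins in pericyte potassium channels, was at 0.51 in CT and 0.41 in cKO, and Pdgfrb, the PDGF-B receptor, at 0.37 and 0.45. Neither passed.

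**Figure D5:**
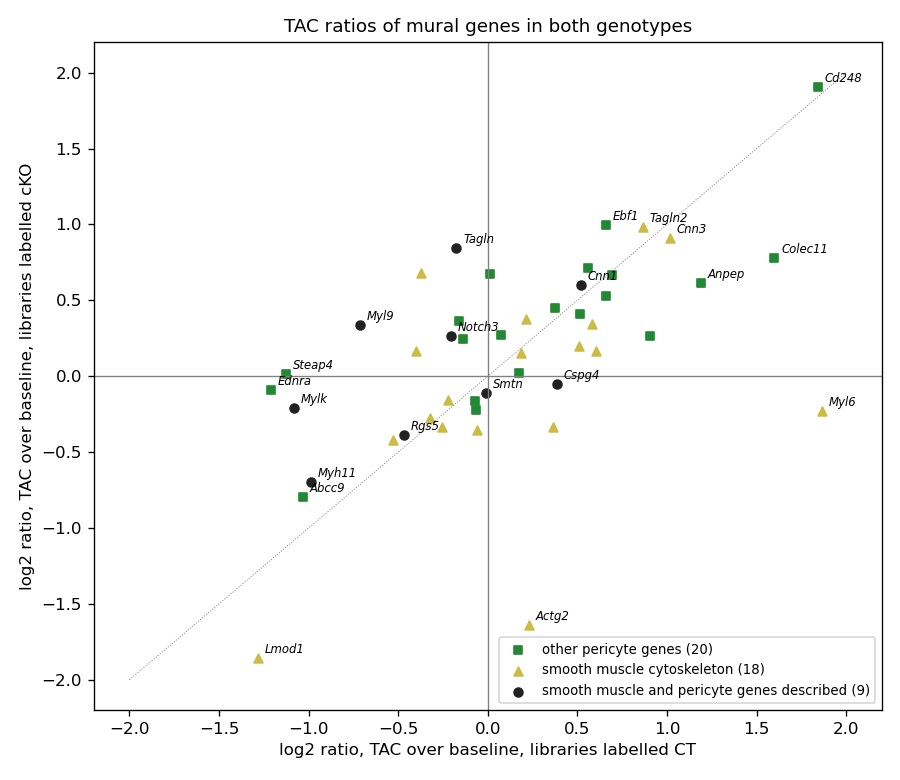
Log2 TAC ratio in libraries labelled CT (horizontal) against that in libraries labelled cKO (vertical) for the 9 genes, 20 further pericyte genes and 18 smooth muscle cytoskeletal genes; the dotted line marks equal ratios. Myh11 and Abcc9 lie together at lower left, Cd248 (1.84 and 1.90) at upper right, and Mylk, Ednra and Steap4 pass the 2-fold rule in CT and not in cKO.

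Around Notch3, 7 of 19 Notch pathway genes passed in some pair, where 19.5% of all genes did, and some of the 7 rest on few reads. The ligand gene Dll1 was higher in cKO TAC than in cKO baseline (1.45) and CT TAC (1.38), and the target Hes1 higher in cKO TAC than in CT TAC (1.69). The target Hey2 was lower under TAC in CT on 10 reads against 1 (ratio interval 0.0031 to 0.947). The coactivator Maml3 had 5 reads in CT baseline and was higher in CT TAC with 12 (ratio interval 1.06 to 11.7) and in cKO baseline with 10 (ratio interval 1.03 to 12.3). Jag1, the ligand that endothelium presents to mural cells, was at -0.02 for TAC in CT and 0.57 in cKO, and Heyl, a NOTCH3 target, at -0.77 and 0.31. Neither passed.

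Of 13 signals that recruit mural cells, 4 passed in some pair, against 19.5% of all genes. Tgfb2 was higher in CT TAC (1.65, 23 reads) and in cKO baseline (2.56, 36 reads) than in CT baseline, which held 9 reads. The ratio intervals were 1.53 to 8.45 and 3.12 to 15.6. Tgfb3 had 39 reads in cKO TAC against 19 in CT TAC and was higher there (ratio interval 1.26 to 4.10). The angiopoietin gene Angpt1, whose product mural cells supply to endothelium, was lower in cKO baseline than in CT baseline (-1.12), and the sphingosine phosphate receptor S1pr3 lower in CT TAC than in CT baseline (-1.13). Of 11 regulators of smooth muscle genes, 1 passed in some pair, Klf4, which represses contractile genes. It had 329 reads in CT and 107 in cKO at baseline, and 110 in CT and 229 in cKO with TAC, and was lower under TAC in CT (-1.14) and higher in cKO than in CT under TAC (1.17). Myocardin, Myocd, was at -0.00 for TAC in CT and -0.13 in cKO, on recovered reads that were not all whole, and Srf was at 0.07 and -0.38. Neither passed. Of 8 other RGS genes measured 2 passed in some pair: Rgs2 was lower in CT TAC (-1.72), and Rgs10 passed as higher on 9 reads against 3 (ratio interval 1.01 to 23.2).

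Among the 9 genes, the closest pair of patterns over the 4 libraries was Myh11 and Mylk, at a Euclidean distance of 0.37 between centred log2 values, and the farthest was Myh11 and Cnn1, at 1.42. The median log2 range over the libraries was 0.63 for the 9 genes and 0.80 for all genes. Over all 5302 genes with a mean of at least 50 reads, those closest to Myh11 were Plbd1 (distance 0.03), the sarcoplasmic reticulum calcium pump Atp2a2 (0.05), Abcc9 (0.09), and the fatty acid oxidation enzymes Cpt2 (0.10) and Acaa2 (0.10). Those closest to Rgs5 were Me1 (0.05), R3hdm2 (0.06), Celf1 (0.06), Adgrl1 (0.06) and Tab2 (0.06). Likeness here rests on 4 libraries and is a description.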

How the data were processed

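Total RNA of 4 mouse hearts was sequenced, with 1 library per group. The authors deposited log2 CPM values, as read from the values themselves. Per the submitters' processing notes, HISAT2, CASAVA, edgeR and the mm10 build were used, with no versions or roles. Counter, annotation and gene filter were not stated. The linear values fall on a grid with an added read, scaled by library size (1 on average). Reads were recovered from it, with 88.6% to 89.0% of genes per library whole within 0.01. The count test planned for counts was not used, since the files hold log2 values.

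Ratios are differences of deposited log2 values. Clopper-Pearson 95% intervals used reads rounded to whole numbers, CPM intervals are exact Poisson, and intervals of a difference of ratios use the normal approximation. All 12408 genes were fitted in R 4.3.3 by limma 3.58.1, using its trend of variance on mean level and additive terms for genotype and surgery. The script was tested on simulated data. Samples were grouped by their titles. Alternatives were scaling, pseudocount, a CPM filter, fold, interval width, trend and design. The members and lists were chosen with earlier results of these data known. All 9 genes are named, and from each other list up to 4 that passed with the largest ratio, plus Acta2, Pdgfrb, Kcnj8, Abcc9, Myocd, Srf, Jag1 and Heyl. Likeness names the 5 closest genes to Myh11 and to Rgs5. Markers of atrial, large vessel and valve, mesothelial, Schwann and neural, and adipocyte cells were also read.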

Additional observations from a re-analysis of the deposited data

Results flagged for a closer look

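For 4 genes the log2 TAC ratio had opposite signs in the 2 genotypes, each with 1 mouse per group, so the difference was not tested between conditions. The flag rests on sign alone, and the share of all genes with opposite signs was not computed. None of the 4 had ratio intervals that excluded 1 in both genotypes. The ratio in cKO minus that in CT was 1.05 for Myl9, 1.02 for Tagln, 0.47 for Notch3 and -0.44 for Cspg4. The counting intervals of Myl9 and Tagln excluded 0, and those of Notch3 (-0.00 to 0.94) and Cspg4 (-1.08 to 0.21) included it.

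The ratio of cKO to CT had opposite signs at baseline and under TAC for Mylk, Myl9 and Notch3. This flag also rests on sign alone, and for none of these genes did both ratio intervals exclude 1. The ratio under TAC minus that at baseline was 0.88 for Mylk, 1.05 for Myl9 and 0.47 for Notch3, the same 4 libraries read the other way. These differences were not tested either.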

How the results depend on the processing

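Over 282 values of single genes recomputed under the alternatives, 7 came to pass the threshold, 1 no longer passed, and 278 kept their sign. The other 4 changed sign under scaling to total counts, and none of these was called. The CPM filter, fold, interval width, trend and design settings leave a gene's estimate unchanged, so its sign could not change under them. Only scaling, pseudocount and leaving out the added read could change a sign. The counts of genes at least 2-fold apart were small and moved with the rule. For TAC in CT the count of 1 became 2 without the added read, as Myh11 passed, and 3 at 1.5-fold. At 1.5-fold it became 1 for TAC in cKO, 2 for genotype at baseline and 1 for genotype under TAC. Scaled to total counts, the count at baseline fell to 0, and the difference of TAC ratios for Notch3 (0.47) then also excluded 0. That scaling raised the median log2 ratio of cKO to CT over all genes by 0.0914 at baseline and 0.0937 under TAC, and turned Cnn1 for genotype over 4 libraries from -0.07 to 0.02, Cnn1 for genotype under TAC from -0.03 to 0.06, Tagln for genotype under TAC from -0.07 to 0.03 and Smtn for TAC in CT from -0.01 to 0.00. The filter at a mean of 5 CPM left out Cnn1. Limma called 0 of the 9 genes under each alternative, while its calls over all genes for TAC went from 226 to 0 without the trend (1544 at an unadjusted p under 0.05) and, without the genotype term, to 17 that rose and 3 that fell. At 82 that rose and 17 that fell with a pseudocount of 5 reads, it called fewer than in the fit as reported. For genotype, limma's calls over all genes went from 3 to 0 without the trend and to 0 without the surgery term. Acta2 was therefore not called in those fits. Leaving out a library leaves the additive fit with no residual degrees of freedom. No paired analysis was possible because each group holds 1 mouse and the labels give no replicate numbers. Depth limits Cnn1 most, at 5 to 10 reads.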

Other observations

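Genes of elastic and large vessel walls were measured beside the mural genes, from a list of 8 with 6 measured. Their sum was 71.5 CPM in CT and 108 in cKO at baseline, and 326 in CT and 582 in cKO with TAC. Elastin, Eln, had 17 reads in CT and 15 in cKO at baseline, and 43 in CT and 85 in cKO with TAC. It rose with TAC by 1.98 (limma, SE 0.33, adjusted p = 0.0138, higher in both genotypes). The microfibril gene Mfap5 rose by 2.44 (limma, SE 0.24, adjusted p = 0.000833) and Comp by 4.32 (limma, SE 0.36, adjusted p = 0.000387), both in each genotype. In the same fit 8 of 14 fibroblast markers rose with TAC and 0 fell. Which cells of the whole heart the reads of Eln, Mfap5 and Comp came from was not tested. The crosslinking enzyme gene Lox had 39 reads in cKO TAC and 5 in CT TAC, a log2 ratio of 2.86.

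Of 8 atrial markers 4 were measured, and their sum was 189 CPM in CT and 2061 in cKO at baseline, and 3626 in CT and 6525 in cKO with TAC. Most of it was the natriuretic peptide gene Nppa. Nppa stood at 129 CPM in CT and 2035 in cKO at baseline, and at 3594 in CT and 6487 in cKO with TAC. In CT baseline Tbx5 gave 53.4 CPM of the sum. Tbx5, a cardiac transcription factor, was instead lower in CT TAC (-1.08) and in cKO baseline (-1.18) than in CT baseline. Of 7 Schwann and neural markers 4 were measured, and none passed in any pair. The mesothelial and adipocyte lists had 1 gene each measured, Wt1, which did not pass in any pair, and Cfd, with 1, 6, 7 and 0 reads in CT baseline, CT TAC, cKO baseline and cKO TAC. The part of these cell types in the mural values was not tested.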
